A study of Homo sapiens with 12 samples.

Results

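The transcripts of 50 genes of DNA replication and S phase were followed through the 4 groups of a study of lycorine, an alkaloid of Amaryllidaceae plants, in leukemia cells. The 50 genes were taken by name from a table of 19447 gene symbols, and all 50 were present in it and passed the low-count filter in every comparison. They comprise the replicative helicase, the factors that license and fire origins, the polymerases and primase, the sliding clamp with its loader and the lagging-strand enzymes, the supply of deoxynucleotides, the copying of chromatin, and the E2F and cyclin E genes. Before S phase, origins are licensed when the origin recognition complex, CDC6 and CDT1 load the MCM2 to MCM7 ring onto DNA. Kinases then fire the origin by joining CDC45 and the GINS complex to that ring, and polymerases follow the unwound fork. Many of these genes are transcribed in late G1 under E2F factors, which the retinoblastoma protein restrains until cyclin E and cyclin D kinases release them.

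K562 is a human chronic myeloid leukemia line that carries BCR-ABL, the kinase that imatinib (IM) inhibits. The groups were untreated K562, K562+L (K562 with 6 µM lycorine), K562/IM, a line derived from K562 by raising imatinib in steps and then kept in 5 µM, and K562/IM+L (K562/IM with 6 µM lycorine), each with 3 libraries. K562/IM is a single derived line, the duration of lycorine exposure before sequencing was not given in the sources used here, nor was it stated whether imatinib stayed in the medium of K562/IM+L. No source says that the 3 libraries of a group came from separate cultures, so that p-values measure the spread between these libraries, which may be technical. The titles of the K562/IM+L libraries carry the group name G2 where the study's figures use G6 for that treatment, and they are referred to as labelled K562/IM+L, or as the labelled libraries. Over the 1272 genes that separated the 2 lines without lycorine by more than 2 on the log2 scale, where K562 is 0 and K562/IM is 1, the 3 labelled libraries lay at medians of 0.0804, 0.0773 and 0.112. On this scale every K562 and K562+L library lay at a median of 0.0, and its genes were chosen from the same K562 and K562/IM libraries. K562 is at 0 by construction. A constant was added to CPM before the log, so genes without counts in K562 and in another library lie at exactly 0. The number of such genes was not counted. A median near 0 therefore does not show that K562+L was unchanged, or how near the labelled libraries are to K562. Every direction drawn from the labelled libraries rests on the label, which was left as deposited.

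The deposited values were whole-number counts per gene symbol, with totals from 75093844 to 107344598 per library. CPM below means counts per 1000000 after TMM scaling over the 12 libraries, and a gene is said to be higher, to have risen, lower or to have fallen only at an adjusted p under 0.05 in the quasi-likelihood test of edgeR, adjusted by the Benjamini-Hochberg method over all genes tested. Values of change are log2 fold changes, and an error marked SE is the standard error of the fit. All 11 genes that mark K562 cells, among them GATA1, the fetal globins, BCR and ABL1, were present in every group, while MS4A1 of B cells and FCN1 of monocytes had 0 counts in all libraries. The other lymphocyte, myeloid, epithelial and fibroblast markers had group means of at most 4.28 CPM, except LYZ (78.3 to 166), EPCAM (46.3 to 128) and, in K562/IM alone, CD3D and COL1A2, the latter at 17.1 CPM. Between replicates of a group the chi-square per degree of freedom ran from 33.7 to 209, the highest being that of K562 replicates 1 and 3. Replicate 3 of the labelled libraries stood at 157 and 195 from the other 2, against 42.6 between those. The median coefficient of variation of the 50 genes within a group ran from 4.06% to 6.84%. In bulk RNA, fewer cells in S phase and less replication RNA per cell cannot be told apart.

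By their sum, the replication transcripts were most abundant in K562+L and least in the labelled libraries. In K562+L 6 of 11 helicase genes and 4 of 7 licensing and firing genes were higher than in K562, by 0.21 to 0.64. These shares were 54.5% and 57.1%, beside 18.2% of all genes. The other genes of these roles, CDT1 and CDC45 among them, did not pass. Of the 6 helicase calls only that of MCM4 held in every fit that left out 1 library, while the 4 licensing and firing calls all held. The libraries labelled K562/IM+L held less of most replication transcripts than either line without lycorine. K562/IM itself stood below K562 for part of the list, by a log2 fold change under 1 for all but 1 gene. The summed level of the 50 genes was 8408 ± 328 CPM (SD, n = 3) in K562, 9339 ± 145 in K562+L, 6954 ± 69.6 in K562/IM and 5208 ± 149.6 in the labelled libraries. No library of one group overlapped any of another in this sum, the closest being 8671 in K562 and 9173 in K562+L.

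**Figure D1:**
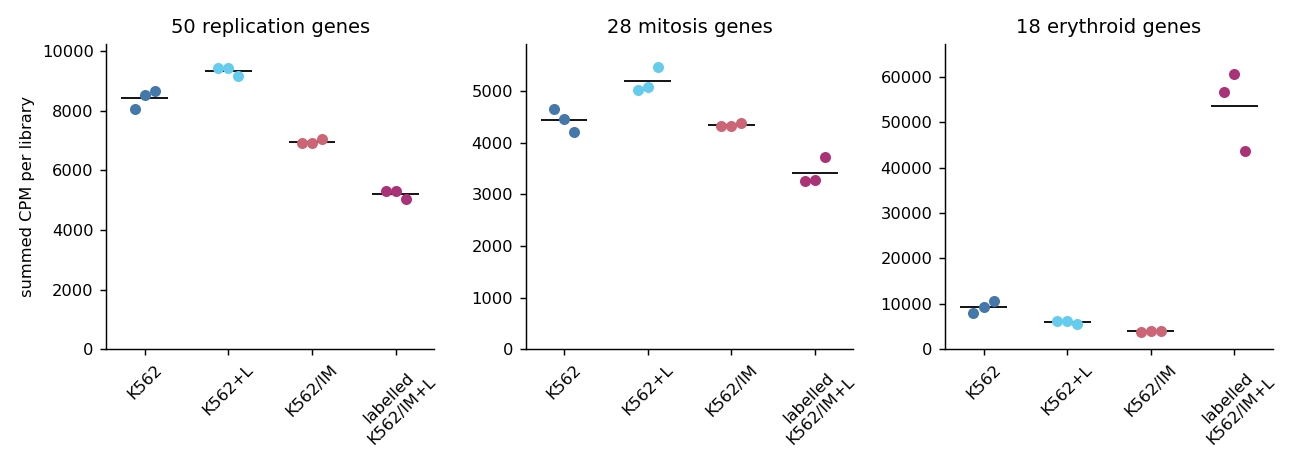
Summed level in CPM of the 50 replication genes, of 28 mitosis genes and of 18 erythroid genes in each of the 12 libraries (points; lines, group means; n = 3). The replication sum fell from K562+L (mean 9339) through K562 (8408) and K562/IM (6954) to the labelled libraries (5208), and the erythroid sum was 53614 in the labelled libraries against 3925 to 9358 elsewhere.

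Of the 50 genes, 16 were higher in K562+L than in K562, 2 were lower and 32 did not pass. These are 32% and 4% of the list, beside 18.2% higher and 19% lower among the 12927 genes tested. The members' median log2 fold change was 0.17, against -0.00012 for all genes, and no gene moved by more than 1, a step that 2.38% of all genes passed upward and 4.01% downward. In 22 genes (44%) all K562+L libraries lay above all K562 libraries, and in 8 (16%) all lay below, beside 25.6% and 25.9% of all genes. The count of 16 rested on single libraries, with 7 left without K562 replicate 2, 8 without K562+L replicate 1 and 10 without K562+L replicate 2 or 3, and 9 of the 18 calls held in every fit that left out 1 library.

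Between K562/IM and K562, 23 genes were lower, 1 was higher and 26 did not pass. The shares are 46% and 2% of the list, beside 27.1% lower and 30.1% higher among 13406 genes. The median was -0.19 against 0.04 for all genes, and it became 0.0048 when counts were scaled by library totals alone, a scaling that moved the median of all genes from 0.04 to 0.23 and gave 8 lower and 10 higher members. The 8 were MCM5, MCM7, GINS2, CDC45, GMNN, PCNA, FEN1 and RRM2, and the other 15 calls of lower level in K562/IM, those of MCM6, ORC1, CDC6, POLD2 and RFC4 among them, ended under that scaling. Only GINS2 fell by more than 1 (2% of the list), against 5.29% of all genes that were lower and 13.9% that were higher by that much. All K562/IM libraries lay below all K562 libraries for 29 genes (58%) and above them for 2 (4%), beside 31.1% and 35.6% of all genes. Without K562/IM replicate 1 the count of lower members was 15.

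Between the labelled libraries and K562/IM, 35 genes were lower, 5 were higher and 10 did not pass. That is 70% and 10% of the list, beside 33.6% lower and 33.2% higher among 13727 genes. The median was -0.41 against -0.01 for all genes, and it stayed below 0 under every scaling tried. In 39 genes (78%) the labelled libraries all lay below those of K562/IM and in 5 (10%) all lay above, beside 38.3% and 35% of all genes. Falls of more than 1 were no more frequent in the list than elsewhere, with 7 members (14%) against 13.8% of all genes, and no member rose by that much against 14.7% of all genes. The calls of 33 of these 40 genes held in every fit that left out 1 library.

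Against K562, the labelled libraries were lower in 42 genes and higher in 0, and 8 did not pass. The share was 84% of the list, beside 27.8% lower and 28.2% higher among 13307 genes. The count of 0 higher members was also 0 at an unadjusted p under 0.05 and 0 with DESeq2, and it was 2 with upper-quartile scaling, 1 with total counts and 1 when all 12 libraries shared a fit. Here 14 members (28%) fell by more than 1, against 8.91% of all genes, and 14.9% of all genes rose by that much. The median was -0.65, against 0.02 for all genes, and all labelled libraries lay below all K562 libraries for 43 genes (86%) and above them for 1 (2%), beside 30.1% and 33.4% of all genes. K562 libraries enter 3 of these comparisons and K562/IM libraries enter 2, whereas the 2 lycorine comparisons share no library.

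**Figure D2:**
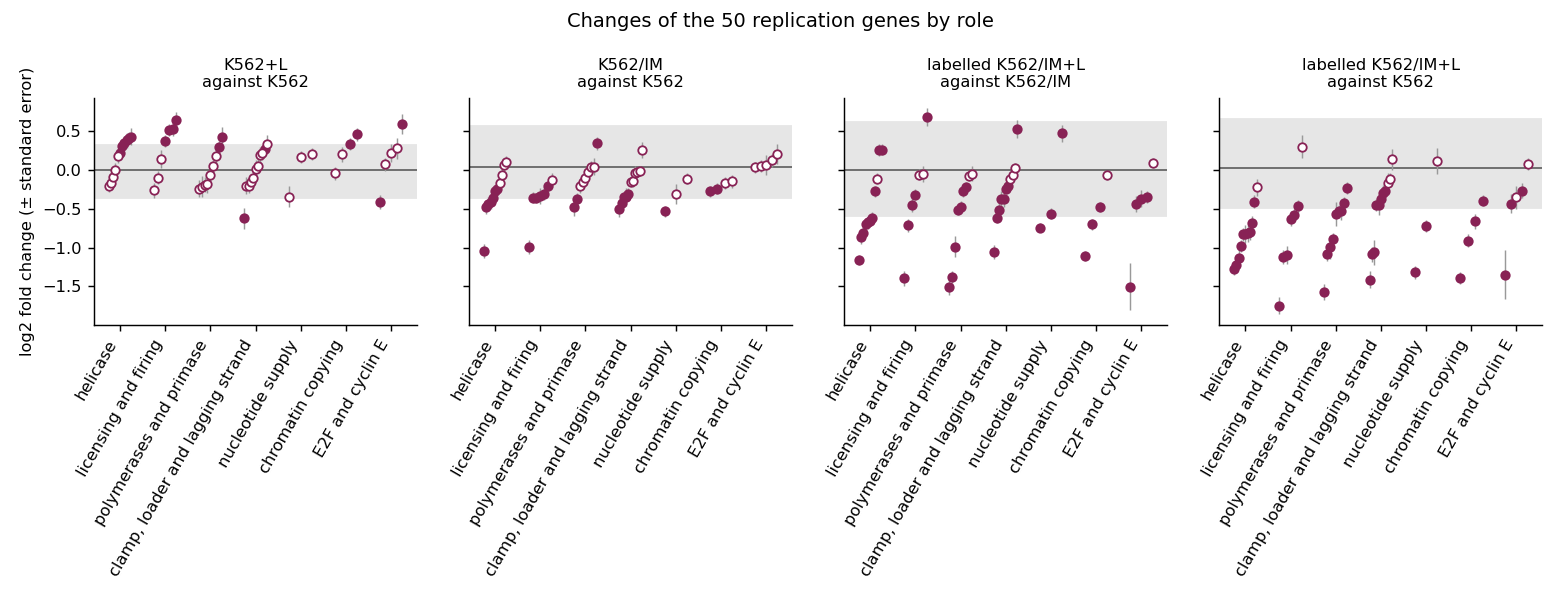
Log2 fold change (± standard error) of each of the 50 genes in the 4 comparisons, grouped by role. Filled points passed an adjusted p of 0.05, the grey band spans the quartiles of all genes tested and the line their median; most points lie above the line in the first panel for helicase and licensing genes and below it in the last panel for every role.

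Because many of these genes are transcribed in late G1 under E2F factors, the promoters were searched for the core letters of the E2F site. The RefSeq promoter windows of GRCh38.p14, from 250 bases before to 50 bases after the gene start, held 42 of the 50 genes, and the windows of MCM4, MCM5, GINS4, POLD3, RPA2, RPA3, E2F8 and CCNE2 were not analysed here. At least 1 of the words TTTCCCGC, TTTCGCGC, TTTGCCGC and TTTGGCGC on either strand, allowing overlaps, was found in 19 of 42 windows, or 45.2% (Wilson 95% interval 31.2% to 60.1%). The same words were found in 5.3% of the windows of 10943 tested genes and in 3.3% of all 27305 windows. Where a gene had several listed starts the first was used, and with any start counted, a choice made after seeing the data, they were found for 21 of the 42 members, 6.5% of tested genes and 4.0% of all genes. The CCAAT box was found in 54.8% of the members' windows against 36.6% of tested genes. The letters TTTGAA or TTCGAA, the CHR element of genes expressed at mitosis, were found in 4.8% against 11.7%. Of the 19 genes with an E2F word 15 were lower in the labelled libraries against K562/IM (median log2 fold change -0.52), and of the 23 without one 15 were lower (median -0.32). In K562+L against K562, 7 of the 19 with a word were higher (median 0.07) and 6 of the 23 without one (median 0.18). A link between the words and the changes was not tested. Below stand the stretches around the match in the 5 matched genes that fell most in the labelled libraries against K562/IM. They are shown to give the matched letters in genes with large falls. Each is written 5′ to 3′ on the gene's strand, with the E2F word in capitals, which reads as the reverse complement where the word lies on the other strand.
POLE: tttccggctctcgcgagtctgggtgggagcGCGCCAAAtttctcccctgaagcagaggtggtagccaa
MCM3: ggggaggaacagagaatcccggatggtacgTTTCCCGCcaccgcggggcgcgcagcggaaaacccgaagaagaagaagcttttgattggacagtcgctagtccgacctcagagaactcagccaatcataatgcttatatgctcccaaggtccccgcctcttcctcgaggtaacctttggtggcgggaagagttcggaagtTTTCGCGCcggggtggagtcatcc
UHRF1: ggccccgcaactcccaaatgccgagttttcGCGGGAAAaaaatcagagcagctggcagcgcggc
RFC3: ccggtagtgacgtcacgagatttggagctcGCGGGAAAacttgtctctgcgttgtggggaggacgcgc
POLA1: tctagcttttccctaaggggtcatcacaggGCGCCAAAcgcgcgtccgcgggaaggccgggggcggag
On GRCh38 these are chr12:132687323-132687390 (minus strand), chr6:52284723-52284946 (minus strand), chr19:4909457-4909520, chr13:33818064-33818131 and chrX:24693751-24693818 (plus strand). The match began 18 bases before the start in POLE, 14 in UHRF1, 55 in RFC3 and 137 in POLA1. MCM3 held 2 matches, 174 and 4 bases before its start. These starts are those of the RefSeq windows, and those of POLE, MCM3, UHRF1 and RFC3 lie inside the GENCODE gene spans given with the values. A match describes letters only and shows no binding, and MCM10, with a log2 fold change of -1.40 in the same comparison, held none of the words in its window.

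The MCM2 to MCM7 ring is the motor of the replicative helicase, and its 6 subunits are needed together. In K562+L 5 of the 6 transcripts rose, by 0.21 to 0.43 on the log2 scale, beside 18.2% of all genes. In the labelled libraries 4 of 6 fell against K562/IM, MCM5 rose and MCM2 did not pass. Of all genes 33.6% fell there and 33.2% rose. MCM2 stood at 224, 256 and 261 CPM in K562, 349, 309 and 307 in K562+L, 205, 198 and 220.1 in K562/IM and 189, 189.6 and 189 in the labelled libraries. The 3 labelled libraries of MCM2 lay close together, just under the lowest K562/IM library, with a log2 fold change of -0.11 ± 0.068 (SE, adjusted p = 0.176). MCM4 stood at 499, 490.2 and 466 CPM in K562, 669, 621 and 647 in K562+L, 429.8, 420.1 and 449 in K562/IM and 268, 261 and 304 in the labelled libraries. Its groups did not overlap in any of the 4 comparisons, with K562+L highest and the labelled libraries lowest, and it rose by 0.41 ± 0.071 (SE, adjusted p = 0.00425) in K562+L and fell by 0.62 (adjusted p = 4.0e-04) in the labelled libraries against K562/IM. MCM6 stood at 284, 292 and 289.5 CPM in K562, 333, 329 and 340.5 in K562+L, 233, 238 and 246 in K562/IM and 147, 145 and 154 in the labelled libraries. MCM7, at the highest CPM of the 50 genes, stood at 712, 807 and 865 CPM in K562, 1069, 994 and 967 in K562+L, 569.9, 552 and 585 in K562/IM and 482, 466 and 437 in the labelled libraries. Both were lower in K562/IM than in K562, the log2 fold changes being -0.27 (adjusted p = 0.00677) and -0.48 (adjusted p = 0.00172), and lower again in the labelled libraries.

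MCM3 and MCM5 departed from the other ring subunits, in different ways. MCM3, on chr6:52264009-52284881 of GRCh38, stood at 373, 386 and 421 CPM in K562, 348, 331 and 339.9 in K562+L, 383, 355 and 391 in K562/IM and 169, 165 and 163 in the labelled libraries. It was the only ring transcript whose K562+L libraries all lay below those of K562, although that difference did not pass (log2 fold change -0.21 ± 0.077 SE, adjusted p = 0.0630). In the labelled libraries every library lay far under the lowest K562/IM library, and MCM3 fell by 1.16 ± 0.068 (SE, adjusted p = 6.8e-06). Its share of the summed CPM of the 6 ring transcripts was 16.4% ± 0.464 (SD, n = 3) in K562, 11.7% ± 0.296 in K562+L, 19.2% ± 0.409 in K562/IM and 11.8% ± 0.0930 in the labelled libraries. MCM5 stood at 163, 193 and 200.1 CPM in K562, 273, 248 and 226 in K562+L, 138, 132 and 139 in K562/IM and 169, 166 and 148 in the labelled libraries. It was lower in K562/IM than in K562 (-0.44 ± 0.091 SE, adjusted p = 0.00418) and rose in K562+L (0.43) and in the labelled libraries (0.26), the only 1 of the 50 genes to rise in both lycorine comparisons. The rise in the labelled libraries ended without replicate 1 or 2 of K562/IM or replicate 1 of the labelled group (adjusted p up to 0.0705) and with total-count scaling. In K562+L the calls of MCM2, MCM5 and MCM7 ended without K562 replicate 2 or K562+L replicate 1 (adjusted p up to 0.0747), that of MCM5 also without K562+L replicate 2, and that of MCM6 without any 1 of the 6 libraries (adjusted p up to 0.145). The call of MCM2 in K562/IM against K562 likewise ended in 4 of 6 such fits (adjusted p up to 0.122).

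CDC45 and the 4 GINS subunits turn the MCM ring into the active helicase. CDC45 was lower in K562/IM than in K562 and lower again in the labelled libraries, at 468 ± 41.0 CPM (SD, n = 3) in K562, 529 ± 19.1 in K562+L, 352 ± 22.2 in K562/IM and 217 ± 15.2 in the labelled libraries. Its log2 fold change was -0.41 ± 0.087 (SE, adjusted p = 0.00461) between the lines without lycorine and -0.67 ± 0.081 (SE, adjusted p = 2.3e-04) between the labelled libraries and K562/IM. The 4 GINS transcripts did not move together. GINS1, GINS3 and GINS4 fell in the labelled libraries against K562/IM without overlap, the log2 fold changes being -0.81, -0.87 and -0.70. GINS2 stood at 152, 178 and 187 CPM in K562, 164, 170.4 and 151 in K562+L, 80.4, 85.3 and 85.3 in K562/IM and 103, 102 and 90.5 in the labelled libraries. Its K562/IM libraries lay far below those of K562, with the largest difference of any member between the lines without lycorine (-1.04 ± 0.092 SE, adjusted p = 6.9e-05), and it was higher in the labelled libraries against K562/IM (0.26 ± 0.074 SE, adjusted p = 0.0154). That rise ended without K562/IM replicate 1 or labelled replicate 1 (adjusted p up to 0.0757) and with total-count scaling. GINS3 also rose in K562+L by 0.31, a call that ended without any 1 of 4 libraries, namely K562 replicate 2 and each K562+L library (adjusted p up to 0.0944).

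Among the licensing and firing factors the 2 partners of the loading step parted. CDC6, an ATPase that joins the origin recognition complex to load the ring, stood at 157, 157 and 159 CPM in K562, 197, 203 and 214 in K562+L, 123, 126 and 119.9 in K562/IM and 67.4, 74.1 and 79.8 in the labelled libraries. It lies on chr17:40287633-40304657, and all 4 groups were separate, with log2 fold changes of 0.37 ± 0.075 (SE, adjusted p = 0.00748) in K562+L and -0.72 ± 0.081 (SE, adjusted p = 1.8e-04) in the labelled libraries against K562/IM. CDT1, the co-loader that is destroyed in S phase, on chr16:88803213-88809258, stood at 226, 277 and 286 CPM in K562, 304, 314 and 253 in K562+L, 214, 214 and 196 in K562/IM and 334, 376 and 275 in the labelled libraries. It was the member with the largest rise in the labelled libraries against K562/IM (0.68 ± 0.11 SE, adjusted p = 0.00128), and against K562 the groups overlapped and the change did not pass (0.30, adjusted p = 0.129). GMNN encodes geminin, the inhibitor of CDT1, and stood at 183, 202 and 206 CPM in K562, 151, 179 and 163 in K562+L, 101, 106 and 89.7 in K562/IM and 98.4, 102 and 81.1 in the labelled libraries. It was lower than in K562 in both K562/IM (-0.99 ± 0.090 SE, adjusted p = 7.7e-05) and the labelled libraries (-1.09 ± 0.12 SE, adjusted p = 2.5e-04), and those 2 groups overlapped. The CDT1 call between the lines without lycorine ended without K562 replicate 2 or any 1 K562/IM library (adjusted p up to 0.0861).

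ORC1, the regulated large subunit of the origin recognition complex, and CDC7, the kinase that fires licensed origins, rose in K562+L. ORC1 stood at 139, 134 and 144 CPM in K562, 207, 196 and 194 in K562+L, 108, 103 and 113 in K562/IM and 104, 98.2 and 103 in the labelled libraries. It rose by 0.52 ± 0.078 (SE, adjusted p = 0.00251) in K562+L, was lower in K562/IM (-0.36, adjusted p = 0.00330), and its labelled libraries overlapped those of K562/IM. CDC7 stood at 93.2, 88.1 and 79.9 CPM in K562, 123, 146 and 138 in K562+L, 81.6, 84.2 and 72.7 in K562/IM and 53.6, 55.1 and 62.9 in the labelled libraries. Its rise of 0.64 ± 0.10 (SE, adjusted p = 0.00293) was the largest of the 50 genes in K562+L, and it fell by 0.45 (adjusted p = 0.00359) in the labelled libraries against K562/IM. ORC6, the small subunit, did not pass in K562+L (-0.10) and fell by 0.32 (adjusted p = 0.00563) in the labelled libraries, while its lower level in K562/IM (-0.21) ended in 4 of 6 fits that left out 1 library (adjusted p up to 0.149).

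MCM10 bridges the helicase and polymerase alpha when origins fire, and it moved more than any other licensing or firing gene in the labelled libraries. On chr10:13161554-13211104, it stood at 129, 115 and 110.0 CPM in K562, 165, 166 and 177 in K562+L, 94.2, 96.1 and 96.3 in K562/IM and 33.9, 32.5 and 40.7 in the labelled libraries. The 4 groups were separate, with K562+L highest and the labelled libraries far under all others. It rose by 0.52 ± 0.090 (SE, adjusted p = 0.00430) in K562+L and fell by 1.40 ± 0.099 (SE, adjusted p = 1.8e-05) in the labelled libraries against K562/IM. Against K562 it fell by 1.75 ± 0.11 (SE, adjusted p = 3.0e-05), the most of the 50 genes. Its lower level in K562/IM (-0.30) ended without K562/IM replicate 1 (adjusted p = 0.0570).

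**Figure D3:**
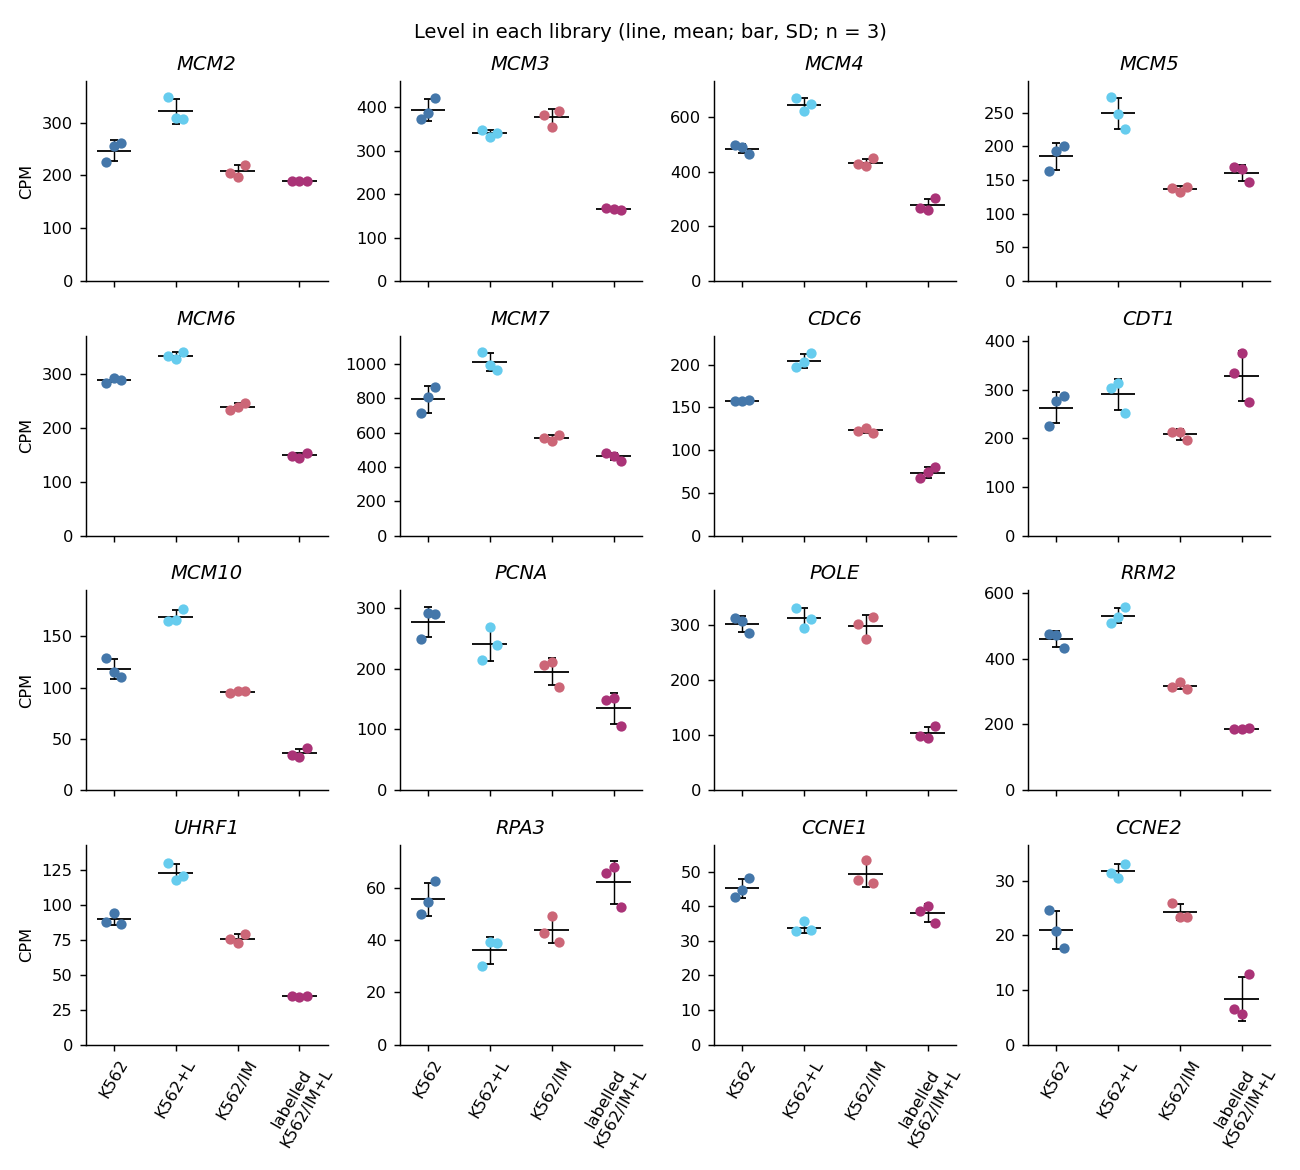
CPM of 16 of the 50 genes in each library (points), with the mean (line) and SD (bar) of the 3 libraries of a group. MCM10, POLE, UHRF1, MCM3 and CCNE2 sit lowest in the labelled libraries without overlap, CDT1 and RPA3 sit higher there than in K562/IM, and MCM2, MCM4, MCM5, MCM6, MCM7 and CDC6 sit highest in K562+L.

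The polymerase genes fell in the labelled libraries with a wide range of sizes. All 9 were lower than in K562 and 7 were lower than in K562/IM, beside 27.8% and 33.6% of all genes. The calls of PRIM1 and POLD2 against K562 ended with upper-quartile scaling. That of PRIM1 held in only 2 of 6 fits that left out 1 library. Against K562/IM the catalytic subunit of the leading-strand polymerase epsilon, POLE, changed most. POLE, on chr12:132623753-132687365, stood at 313, 307 and 285 CPM in K562, 331, 294 and 311 in K562+L, 302, 275 and 315 in K562/IM and 99.2, 94.8 and 116 in the labelled libraries. The 9 libraries of the other 3 groups overlapped between 275 and 331 CPM, and the labelled libraries lay far below that range, with a log2 fold change of -1.50 ± 0.10 (SE, adjusted p = 1.4e-05) against K562/IM. Its accessory subunit POLE2 fell less (-0.47 ± 0.074 SE, adjusted p = 9.2e-04). POLD3, an accessory subunit of the lagging-strand polymerase delta, stood at 35.1, 30.3 and 32.6 CPM in K562, 28.4, 24.6 and 29.8 in K562+L, 39.2, 42.4 and 42.8 in K562/IM and 16.2, 15.2 and 15.7 in the labelled libraries. It was the only member higher in K562/IM than in K562 (0.34 ± 0.084 SE, adjusted p = 0.00923), and it fell by 1.38 ± 0.076 (SE, adjusted p = 5.1e-06) in the labelled libraries. The catalytic subunit POLD1 fell by 0.28 there, and POLD2, which tethers the subunits, was lower in K562/IM than in K562 (-0.48) and did not pass between the labelled libraries and K562/IM (-0.05, adjusted p = 0.680).

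Polymerase alpha with its primase lays down the primers of both strands. POLA1, its catalytic subunit, stood at 103, 87.9 and 79.5 CPM in K562, 118, 112 and 133 in K562+L, 90.5, 89.5 and 98.2 in K562/IM and 42.8, 39.8 and 55.3 in the labelled libraries. K562+L was highest and the labelled libraries lowest without overlap, with log2 fold changes of 0.43 ± 0.12 (SE, adjusted p = 0.0248) in K562+L and -0.99 ± 0.13 (SE, adjusted p = 3.9e-04) in the labelled libraries. The rise in K562+L ended without any 1 of K562 replicates 2 and 3 and K562+L replicates 1 and 3 (adjusted p up to 0.0899). POLA2 fell by 0.52 (adjusted p = 2.6e-04) in the labelled libraries. Of the primase subunits, PRIM2 fell there (-0.22), a call that ended in 3 of 6 fits (adjusted p up to 0.0786), and PRIM1 did not pass (-0.08). PRIM1 rose by 0.29 in K562+L and was lower in the labelled libraries against K562 (-0.23), calls that ended in 5 and 4 of 6 such fits (adjusted p up to 0.0942 and 0.140).

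PCNA is the sliding clamp that holds polymerases on DNA, and the RFC complex loads it. PCNA, on chr20:5114953-5126626, stood at 249, 292 and 289.7 CPM in K562, 214, 268 and 239 in K562+L, 206, 210.3 and 169 in K562/IM and 148, 151 and 105 in the labelled libraries. It was lower in K562/IM than in K562 (-0.51 ± 0.11 SE, adjusted p = 0.00473) and lower again in the labelled libraries (-0.51 ± 0.15 SE, adjusted p = 0.0177), and it did not pass in K562+L (-0.20). The second of these calls ended without K562/IM replicate 1 or 2 (adjusted p up to 0.0626). Among the 5 loader subunits RFC3 moved most. On chr13:33818049-33966558, RFC3 stood at 86.0, 79.3 and 72.5 CPM in K562, 78.0, 81.6 and 87.6 in K562+L, 62.9, 64.1 and 64.1 in K562/IM and 27.3, 30.1 and 33.2 in the labelled libraries. The labelled libraries lay well below the lowest K562/IM library, with a log2 fold change of -1.05 ± 0.088 (SE, adjusted p = 3.8e-05), and the K562 and K562+L libraries overlapped. RFC1, RFC2 and RFC5 fell in the labelled libraries against K562/IM, the log2 fold changes being -0.37, -0.37 and -0.25, and RFC4 did not pass (0.02). RFC4 was lower in K562/IM than in K562 (-0.35, adjusted p = 0.00308), as was RFC3 (-0.32), whose call ended without K562/IM replicate 1 (adjusted p = 0.0536). The RFC1 call in the labelled libraries ended in 2 of 6 fits that left out 1 library (adjusted p up to 0.0554).

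FEN1 trims the flaps of Okazaki fragments and LIG1 seals them. FEN1 was at 216 ± 20.6 CPM (SD, n = 3) in K562, 251 ± 11.6 in K562+L, 161 ± 0.831 in K562/IM and 103 ± 5.14 in the labelled libraries, lower in K562/IM than in K562 (-0.43 ± 0.084 SE, adjusted p = 0.00331) and lower again in the labelled libraries (-0.62 ± 0.065 SE, adjusted p = 1.2e-04). LIG1 fell by 0.20 in the labelled libraries, a call that ended in 5 of 6 fits that left out 1 library (adjusted p up to 0.0791). The 3 subunits of RPA, which coats single-stranded DNA, moved apart. RPA1 rose by 0.27 in K562+L, a call that ended in 5 of 6 such fits (adjusted p up to 0.121), and of the 4 comparisons RPA2 passed only that of the labelled libraries with K562 (-0.30), which also ended in 5 of 6 (adjusted p up to 0.130). RPA3, the smallest subunit, stood at 50.1, 54.5 and 62.5 CPM in K562, 30.1, 39.4 and 38.8 in K562+L, 42.8, 49.1 and 39.3 in K562/IM and 65.7, 67.9 and 52.7 in the labelled libraries. It was the member with the largest fall in K562+L (-0.63 ± 0.13 SE, adjusted p = 0.00925) and rose in the labelled libraries against K562/IM (0.53 ± 0.12 SE, adjusted p = 0.00573), where the groups did not overlap. Its lower level in K562/IM than in K562 (-0.35) ended in 4 of 6 fits that left out 1 library (adjusted p up to 0.121).

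Ribonucleotide reductase makes the deoxynucleotides, and its 2 subunits fell in the labelled libraries. RRM2, the S-phase subunit, on chr2:10120698-10131419, stood at 476, 471 and 431 CPM in K562, 509, 528 and 556 in K562+L, 314, 330.4 and 309 in K562/IM and 187, 185 and 188 in the labelled libraries. It was lower in K562/IM than in K562 (-0.53 ± 0.069 SE, adjusted p = 4.6e-04) and lower again in the labelled libraries (-0.74 ± 0.062 SE, adjusted p = 3.6e-05), and its K562+L libraries lay above those of K562 without passing (0.21, adjusted p = 0.0646). RRM1, the large subunit, fell by 0.56 ± 0.069 (SE, adjusted p = 2.5e-04) in the labelled libraries. TK1, the thymidine kinase of the salvage pathway, stood at 102, 131 and 144 CPM in K562, 104, 105 and 88.3 in K562+L, 99.5, 98.8 and 105 in K562/IM and 149.8, 149 and 116 in the labelled libraries. It went the other way from both reductase subunits, with a rise of 0.47 ± 0.11 (SE, adjusted p = 0.00551) in the labelled libraries against K562/IM, while against K562 the groups overlapped.

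UHRF1 carries DNA methylation over to the new strand, and CHAF1A and CHAF1B are subunits of the factor that deposits histones behind the fork. UHRF1, on chr19:4903080-4962154, stood at 87.8, 94.1 and 86.5 CPM in K562, 130.2, 118 and 121 in K562+L, 75.6, 72.4 and 78.9 in K562/IM and 34.6, 34.2 and 34.7 in the labelled libraries. The 4 groups were separate, and the 3 labelled libraries differed from one another by less than 1 CPM. Its log2 fold change was 0.46 ± 0.084 (SE, adjusted p = 0.00543) in K562+L and -1.11 ± 0.067 (SE, adjusted p = 7.8e-06) in the labelled libraries against K562/IM, and its lower level in K562/IM (-0.24) ended in 3 of 6 fits that left out 1 library (adjusted p up to 0.0965). CHAF1A fell by 0.47 (adjusted p = 4.5e-04) in the labelled libraries, whereas CHAF1B did not pass there (-0.07). CHAF1B rose by 0.33 in K562+L, a call that ended in 3 of 6 fits (adjusted p up to 0.0704), and was lower in K562/IM (-0.28), which ended without K562/IM replicate 1 (adjusted p = 0.0531). SLBP, which binds the stem-loop of histone transcripts and is needed to make histones in S phase, fell by 0.70 ± 0.071 (SE, adjusted p = 1.0e-04) in the labelled libraries.

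The regulators did not move together. CCNE1 and CCNE2 encode the 2 E-type cyclins, which activate CDK2 at the entry to S phase. CCNE1 stood at 42.6, 44.8 and 48.0 CPM in K562, 32.8, 35.7 and 33.0 in K562+L, 47.4, 53.5 and 46.6 in K562/IM and 38.7, 40.1 and 35.2 in the labelled libraries. CCNE2 stood at 24.5, 20.8 and 17.6 CPM in K562, 31.4, 30.5 and 33.1 in K562+L, 25.9, 23.3 and 23.4 in K562/IM and 6.55, 5.56 and 13.0 in the labelled libraries. In K562+L the 2 moved in opposite directions, CCNE1 with a log2 fold change of -0.42 ± 0.088 (SE, adjusted p = 0.00909) and CCNE2 with 0.59 ± 0.13 (SE, adjusted p = 0.00958), each without overlap with K562. In the labelled libraries both fell against K562/IM, CCNE2 far more (-1.50 ± 0.30 SE, adjusted p = 0.00331) than CCNE1 (-0.35 ± 0.083 SE, adjusted p = 0.00725). CCNE2 had the widest spread of any member within a group, with a coefficient of variation of 48.3% in the labelled libraries, where replicate 3 was the highest. The rise of CCNE2 in K562+L ended when all 12 libraries shared a fit. The call of CCNE1 as lower in the labelled libraries against K562 (-0.27) ended in 5 of 6 fits that left out 1 library (adjusted p up to 0.109).

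E2F1, an activator of the replication genes, stood at 37.1, 39.0 and 41.6 CPM in K562, 42.6, 53.2 and 40.8 in K562+L, 41.7, 39.0 and 40.9 in K562/IM and 29.9, 32.9 and 25.5 in the labelled libraries. It did not pass in K562+L or K562/IM and in the labelled libraries against K562/IM it fell by 0.44 ± 0.10 (SE, adjusted p = 0.00589). E2F8, a repressor of the family, fell there (-0.37), a call that ended in 4 of 6 fits that left out 1 library (adjusted p up to 0.0777). E2F2, another activator, passed in none of the 4 comparisons, with means of 41.2 ± 1.43, 43.2 ± 1.80, 42.2 ± 1.80 and 44.1 ± 0.299 CPM (SD, n = 3) in K562, K562+L, K562/IM and the labelled libraries.

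Per kilobase of exon sequence, the levels of the members spanned a wide range in every group. In K562 the highest were MCM7 (218 CPM per kb), CDC45 (214) and PCNA (188), and the lowest were E2F8 (7.90), POLD3 (7.89) and CCNE2 (6.11). The same 3 genes led in K562+L and K562/IM. In the labelled libraries MCM7 (126) was followed by CDT1 (101), CDC45 (99.3) and PCNA (91.7), with TK1 (79.9) next, and CCNE2 (2.44) was lowest. Per kb levels use the exon length of protein-coding transcripts and assume that all exons are used.

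An interaction fitted to all 12 libraries tested whether lycorine, as labelled, acted differently in the 2 lines. The effect was more negative in K562/IM for 36 of the 50 genes and more positive for 4, beside 31.7% and 29.9% of the 13995 genes tested, and 10 did not pass. CCNE2 differed most (-2.12 ± 0.35 SE, adjusted p = 2.8e-04), followed by MCM10 (-1.94 ± 0.13 SE, adjusted p = 2.1e-07), UHRF1 (-1.59 ± 0.092 SE, adjusted p = 6.7e-08), POLE (-1.57 ± 0.12 SE, adjusted p = 8.2e-07) and POLA1 (-1.44 ± 0.18 SE, adjusted p = 3.5e-05). The 4 with a more positive effect were RPA3 (1.13 ± 0.19 SE, adjusted p = 3.5e-04), TK1 (0.79 ± 0.19 SE, adjusted p = 0.00321), CDT1 (0.52 ± 0.18 SE, adjusted p = 0.0254) and GINS2 (0.33 ± 0.13 SE, adjusted p = 0.0393). Of these, RPA3 and TK1 passed in every fit that left out 1 of the 12 libraries, CDT1 in 6 and GINS2 in 3 of 12 (adjusted p up to 0.0864 and 0.115). In the labelled libraries against K562/IM 35 of the 50 genes (70%) fell, beside 33.6% of all genes. Of the 16 genes that rose in K562+L, 10 fell there, not a larger share than in the whole list. These 10 were the helicase genes MCM4, MCM6, MCM7 and GINS3, the licensing and firing genes CDC6, CDC7 and MCM10, and POLA1, UHRF1 and CCNE2. Choosing them by both directions fixes the sign of their difference, so that its test adds nothing for them. The rises of MCM6, MCM7, GINS3 and POLA1 ended in fits that left out 1 library. CCNE1 was the only member that fell in both lycorine comparisons, and its effects did not differ detectably (difference 0.04 ± 0.12 SE, adjusted p = 0.767). Across the 50 genes the effects in the 2 lines had a Pearson r of -0.26 and a Spearman rho of -0.22, and across the 12810 genes tested in both -0.086 and -0.19, which describe genes that are not independent replicates.

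**Figure D4:**
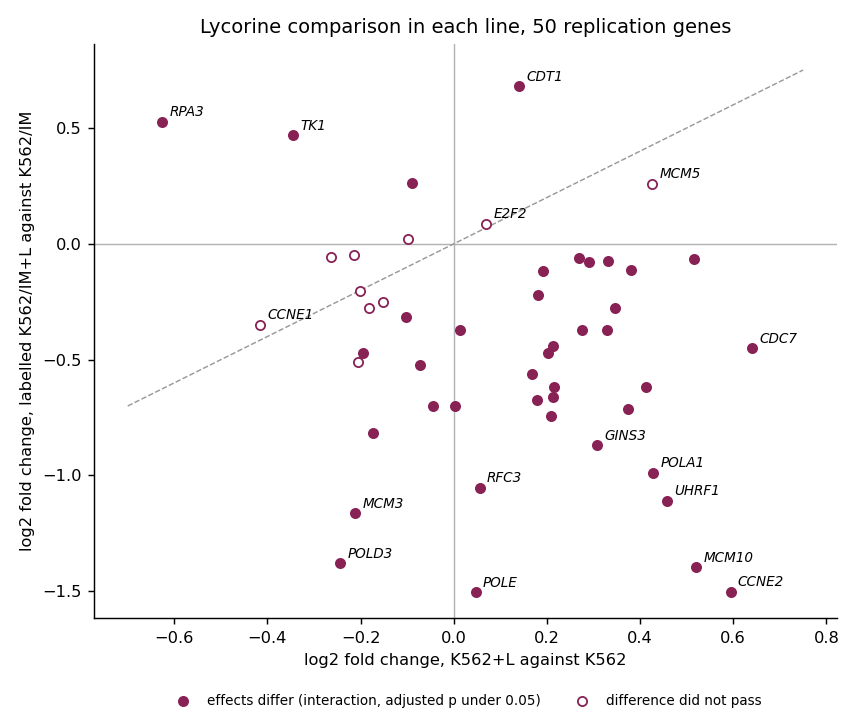
Log2 fold change of the 50 genes in K562+L against K562 (horizontal) and in the labelled libraries against K562/IM (vertical). Filled points differ between the lines by the interaction test (40 genes), the dashed line marks equal effects, and the 10 genes that rose in K562+L and fell in the labelled libraries lie to the lower right, with CCNE2 and MCM10 farthest out.

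Further replication genes outside the list were counted in the same way. Of 71 further genes for initiation and the fork, for nucleotides and chromatin, and for the E2F and RB network, 18 were higher and 8 lower in K562+L, 12 higher and 24 lower in K562/IM, and 9 higher and 47 lower in the labelled libraries against K562/IM. In K562+L these are 25.4% and 11.3%, beside 18.2% and 19% of all genes. For K562/IM they are 16.9% and 33.8%, beside 30.1% and 27.1%. The last are 12.7% and 66.2%, beside 33.2% and 33.6%. Against K562 the labelled libraries were higher in 5 of the 71 (7.04%) and lower in 47 (66.2%), beside 28.2% and 27.8% of all genes. MCMBP, a binding partner of the MCM ring, rose by 0.73 in K562+L and fell by 1.63 in the labelled libraries. POLD4, the small subunit of polymerase delta, did the reverse, with -0.90 in K562+L and 1.30 in the labelled libraries, and was higher in K562/IM by 0.66. ORC5, a core subunit of the origin recognition complex, rose by 0.85 in K562+L. SAMHD1, which degrades deoxynucleotides, rose by 0.84 in K562+L and fell by 1.10 in the labelled libraries. HELLS, a chromatin remodeler, fell there as well (-1.30). NME1 and DCTPP1 of nucleotide metabolism were lower in K562/IM than in K562 (-1.08 and -0.88).

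Of the 21 genes of the E2F and RB network, 5 were higher and 6 lower in K562/IM than in K562. These are 23.8% and 28.6%, near the 30.1% and 27.1% of all genes. In the labelled libraries against K562/IM 3 were higher and 14 lower, or 14.3% and 66.7%, beside 33.2% and 33.6% of all genes. CDKN1A, the CDK inhibitor p21, was higher in K562/IM than in K562 by 2.20 ± 0.089 (SE, adjusted p = 1.7e-06), RB1 by 1.02 ± 0.11 (SE, adjusted p = 1.7e-04) and RBL2, which encodes the related p130, by 0.88 ± 0.13 (SE, adjusted p = 9.3e-04). In K562+L CDKN1A and RB1 rose by 0.82 and 0.56, together with the phosphatase gene CDC25A (0.51). In the labelled libraries CDKN1A fell by 2.96 against K562/IM, along with RBL1 (-1.49), which encodes p107, and the repressor E2F7 (-1.57). Other CDK inhibitor genes, named after their values were seen, went the other way, CDKN2C rising by 1.11 and CDKN1B by 0.53 there, while in K562/IM against K562 their log2 fold changes of -0.18 and 0.04 did not pass. CDKN2D passed in neither (-0.16 and 0.39). CDC25A and CCNA2, the S-phase cyclin, were lower in the labelled libraries against K562 (-1.40 and -1.02).

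Genes of mitosis and of red cell development were counted as well. Of 28 mitosis genes 7 were higher and 3 lower in K562+L, 3 higher and 9 lower in K562/IM, and 6 higher and 11 lower in the labelled libraries against K562/IM. The shares were 25% and 10.7% in K562+L, beside 18.2% and 19% of all genes. They were 10.7% and 32.1% in K562/IM, beside 30.1% and 27.1%. In the labelled libraries they were 21.4% and 39.3%, beside 33.2% and 33.6%. Against K562 the labelled libraries were higher in 2 mitosis genes (7.14%) and lower in 14 (50%), beside 28.2% and 27.8% of all genes. The summed level of the mitosis genes was 4438 ± 219 CPM (SD, n = 3) in K562, 5186 ± 242 in K562+L, 4341 ± 33.5 in K562/IM and 3419 ± 256 in the labelled libraries. Of 18 erythroid genes, all were higher in the labelled libraries against K562/IM and 16 were higher than in K562. These are 100% and 88.9% of the list, beside 33.2% and 28.2% of all genes. In K562+L 1 of 17 erythroid genes tested was higher (5.88%) and 9 were lower (52.9%), beside 18.2% and 19%. In K562/IM against K562 1 of 17 was higher (5.88%) and 13 were lower (76.5%), beside 30.1% and 27.1%. The summed erythroid level ran from 43668 to 60593 CPM in the labelled libraries, 3848 to 4007 in K562/IM, 8043 to 10622 in K562 and 5527 to 6186 in K562+L. The part of these lists in the levels of the replication genes was not tested.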

How the data were processed

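Messenger RNA was sequenced in 12 libraries, grouped by the cell line and treatment in their labels. The authors deposited whole-number counts per gene symbol without normalization. Per the labels, the tools were FastQC, STAR, StringTie and DESeq2 with build hg38, with no version, role or counting options given. Low counts lie near multiples of 4, and counts divided by 4 were run as an alternative. The study's methods name no test for these libraries. Each comparison used its 6 libraries, filterByExpr (minimum count 10), TMM and edgeR 4.0.16 (quasi-likelihood test, Benjamini-Hochberg) in R 4.3.3, and the interaction used all 12. Alternatives used DESeq2 1.42.0, other scalings and filters, and each library left out. CPM used TMM over 12 libraries, and exon lengths and positions came from GENCODE release 29 on GRCh38. The 50 members, the other gene lists and the tests were chosen with earlier results of these data known. Values in every library are given for MCM2 to MCM7, PCNA, CDC6, CDT1, RRM2, CCNE1, CCNE2, E2F1 and, in each comparison, the 5 members of largest change in each direction that passed, and at most 3 genes per pathway list and comparison are named. On simulated counts with 200 genes changed by 1.5 on the log2 scale, the test of K562+L against K562 recovered 170 with 10 false calls among 12859 genes, and the interaction recovered 144 with 4 among 13876. The 50 genes changed by -0.63 to 0.64 in K562+L against K562, and recovery of changes that small was not simulated. Replicates of a group differed by more than sampling noise, and none was merged with another. With 3 libraries per group, an exact test cannot give a p under 0.1. Whether paralogs shared reads was not tested.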

Additional observations from a re-analysis of the deposited data

Results flagged for a closer look

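In 40 of the 50 replication genes the 2 lines, as labelled, responded differently to lycorine by the interaction test of edgeR over 12 libraries. The effect in K562/IM was more negative for 36 (72%) and more positive for 4 (8%), beside 31.7% and 29.9% of all genes. Values below are the effect in K562/IM minus that in K562 on the log2 scale. For the helicase they were -0.52 for MCM2, -0.97 for MCM3, -1.05 for MCM4, -0.90 for MCM6, -0.65 for MCM7, -0.66 for GINS1, 0.33 for GINS2, -1.20 for GINS3, -0.73 for GINS4 and -0.87 for CDC45. Among licensing and firing factors they were -0.60 for ORC1, -0.24 for ORC6, -1.11 for CDC6, 0.52 for CDT1, -1.12 for CDC7 and -1.94 for MCM10. Among polymerase and primase genes they were -1.44 for POLA1, -0.47 for POLA2, -0.39 for PRIM1, -0.42 for PRIM2, -1.16 for POLD3, -1.57 for POLE and -0.30 for POLE2. For the clamp loader, lagging strand and RPA they were -0.72 for RFC1, -0.41 for RFC2, -1.13 for RFC3, -0.86 for FEN1, -0.35 for RPA1, -0.33 for RPA2 and 1.13 for RPA3. Nucleotide and chromatin genes had -0.75 for RRM1, -0.98 for RRM2, 0.79 for TK1, -1.59 for UHRF1, -0.70 for CHAF1A, -0.43 for CHAF1B and -0.68 for SLBP. Of the regulators, E2F1 had -0.68, E2F8 -0.67 and CCNE2 -2.12. In 34 of the 40 the difference passed in all 12 fits that each left out 1 library, the exceptions being GINS2, ORC6, CDT1, POLE2, RFC2 and RPA2. The place of the labelled libraries near K562 over the genes that separate the lines, and their erythroid transcripts, move with this difference, and their part in it was not tested.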

How the results depend on the processing

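The counts of lower members in the labelled libraries (35 against K562/IM, 42 against K562) and of more negative effects in the resistant line (36) stayed within 1.5 times under every alternative, from 31 to 35 and from 36 to 41 with 1 library left out, and for the last from 32 to 36. In K562+L the 16 higher members became 7 with the replicate block and 7 at an adjusted p under 0.01, and 7 to 17 with 1 library left out. The 2 lower members became 4 with DESeq2, upper-quartile scaling or all 12 libraries, and 2 to 6 with 1 library left out. In K562/IM against K562 the 1 higher member became 2 with DESeq2 or upper-quartile scaling and 10 with total counts, and 1 to 3 with 1 library left out, while the 23 lower members became 8 with total counts and 15 to 31. Higher members in the labelled libraries against K562/IM (5) became 3 with total counts or at an adjusted p under 0.01, and 3 to 5. Against K562 they went from 0 to 2 with upper-quartile scaling, 1 with total counts and 1 with all 12 libraries, and 0 to 1. The 4 more positive effects became 2 with total counts or at an adjusted p under 0.01, and 2 to 4. With total counts RPA1 in K562/IM reversed to 0.18 and RFC4 in the labelled libraries to -0.17. Total counts moved the median of all genes from -0.01 to -0.19 in the labelled libraries against K562/IM, and upper-quartile scaling from 0.02 to 0.17 against K562, and the interaction's from -0.02 to -0.21 and 0.11. Beyond these the cause was not tested. The deviations of same-numbered libraries from their group means had correlations from -0.517 to 0.136. Libraries of different number were not set beside them, so these values cannot decide whether the numbers pair samples. With the replicate block the other counts were 19 lower in K562/IM, 34 and 35 lower in the labelled libraries and 35 more negative effects. The share of members with an E2F motif was 40.5% with the 2 words TTTCCCGC and TTTGGCGC alone. Of the calls, 8 of 18 in K562+L, 9 of 24 in K562/IM, 36 of 40 and 34 of 42 in the labelled libraries and 34 of 40 differences held in every alternative that kept all libraries. With 3 libraries per group, the smallest change called in a pairwise comparison was that of LIG1 (-0.20 in the labelled libraries against K562/IM), and no smaller one passed.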
